A study of Mus musculus with 30 samples.

Results

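The E proteins and their Id inhibitors are 6 genes in these data: the E protein genes Tcf3 (encoding E2A), Tcf12 (HEB) and Tcf4 (E2-2), and the inhibitor genes Id1, Id2 and Id3. They were taken by symbol from the 24459 genes of the RNA count files, and all 6 were found. E proteins are helix-loop-helix transcription factors that bind E-box sequences as dimers, and E2A with its partners opens the B cell program in bone marrow. Id proteins have the helix-loop-helix but no DNA-binding part, so they pair with E proteins and keep them off DNA. In mouse lymphoid development Id2 is known for NK and innate lymphoid cells, Id3 as a gene switched by antigen receptor and cytokine signals, and E2-2 for plasmacytoid dendritic cells.

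RNA was sequenced from sorted bone marrow cells of C57BL/6 mice with the G158R substitution in Ikzf3, the gene of the zinc finger factor Aiolos. Homo mice (Ikzf3m/m) carried it on both alleles, het mice (Ikzf3+/m) on 1, and WT mice (Ikzf3+/+) on none. Pre-B cells were sorted as B220+AA4.1+IgM-CD43-CD24+ and the earlier pre-pro B cells as B220+AA4.1+IgM-CD43+CD24-, with 3 libraries for each stage and genotype, 18 in all. Lists of bound regions came from chromatin immunoprecipitation with sequencing (ChIP-seq) for Aiolos and for its relative Ikaros, the product of Ikzf1. These were made in homo and WT thymocytes and in homo and WT pre-B cells grown from B220+ IgM- marrow on Tst-4 stroma with IL-7, SCF and Flt3L, with 1 library for each antibody, genotype and cell type. The ages of the mice, and whether the 3 libraries of a group came from separate mice, are not given in the sources used here, so p-values measure the spread between libraries.

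The libraries held between 1888871 and 9048055 gene counts. The shallowest was pre-B homo library 3, and the shallowest pre-pro B library was the first het one, with 4683715. In pre-pro B cells the 3 homo libraries held 8592557 to 9048055 counts and the 3 WT libraries 5443344 to 6492192, so depth moved with genotype there. By Xist against Y-linked genes, 1 of 3 homo, 2 of 3 het and 3 of 3 WT libraries at each stage came from XX mice. In CPM, a gene's counts scaled to a fixed library total after TMM normalisation, B lineage genes such as Pax5 (207 ± 5.95 CPM in WT pre-B cells and 11.1 ± 2.22 CPM in WT pre-pro B cells, SD, n = 3) fitted the pre-B label. The pre-pro B gate also held transcripts of plasmacytoid dendritic genes, with 16 such genes summing to 765 to 1397 CPM in pre-B libraries and 6003 to 9192 CPM in pre-pro B libraries.

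The promoters of the members that the results turn on are shown first, as the 250 bases before the annotated start in RefSeq (GRCm38.p6), 5′ to 3′, with any match to the E-box CANNTG in capitals. Id2 and Id3 are the members whose RNA differed between genotypes. An Ikaros region lay over the window of the internal Tcf12 start, shown here, in each of the 4 Ikaros lists. The same held for a window at the 5′ end of Tcf12, chr9:72111202-72111451, which is not printed. The Id2 window is chr12:25096093-25096342 on the minus strand, the Id3 window chr4:136143572-136143821 on the plus strand and the Tcf12 window chr9:71896097-71896346 on the minus strand.
Id2: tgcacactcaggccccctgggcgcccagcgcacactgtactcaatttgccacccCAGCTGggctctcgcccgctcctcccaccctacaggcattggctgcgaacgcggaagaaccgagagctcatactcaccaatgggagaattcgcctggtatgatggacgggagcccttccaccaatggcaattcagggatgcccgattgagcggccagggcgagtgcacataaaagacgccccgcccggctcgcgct
Id3: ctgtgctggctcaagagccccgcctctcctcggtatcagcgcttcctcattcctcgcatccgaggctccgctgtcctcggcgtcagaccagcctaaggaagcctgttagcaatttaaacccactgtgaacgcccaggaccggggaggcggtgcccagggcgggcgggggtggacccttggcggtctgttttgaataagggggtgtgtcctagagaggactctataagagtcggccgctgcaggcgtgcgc
Tcf12: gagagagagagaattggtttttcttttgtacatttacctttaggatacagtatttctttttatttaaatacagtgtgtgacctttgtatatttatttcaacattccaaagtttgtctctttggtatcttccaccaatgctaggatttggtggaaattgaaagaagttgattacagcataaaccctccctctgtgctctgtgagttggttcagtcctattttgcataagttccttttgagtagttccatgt
The Id2 window held 1 CANNTG match and the other 2 printed windows held none. Of all 32851 promoter windows of this length, 66.2% held at least 1. The Tcf12 windows at the 5′ end, chr9:72111202-72111451 and chr9:72111820-72112069, are not printed and held 1 match each. The Ikaros core letters GGGAA, searched on both strands, were in none of the 3 printed windows and in 56.2% of all windows. Matches to the 2 motifs were counted separately, whether or not they overlap. A window without a match says only that these letters are not in it.

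Of the 6 members, 5 had enough counts to be tested in every fit, and Id1 did not. Levels below are such CPM values, and differences are log2 fold changes ± standard error from edgeR's quasi-likelihood test with Benjamini-Hochberg adjustment over all genes tested, called at an adjusted p under 0.05. In bulk libraries, fewer cells of a type and less RNA per cell cannot be told apart.

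**Figure D1:**
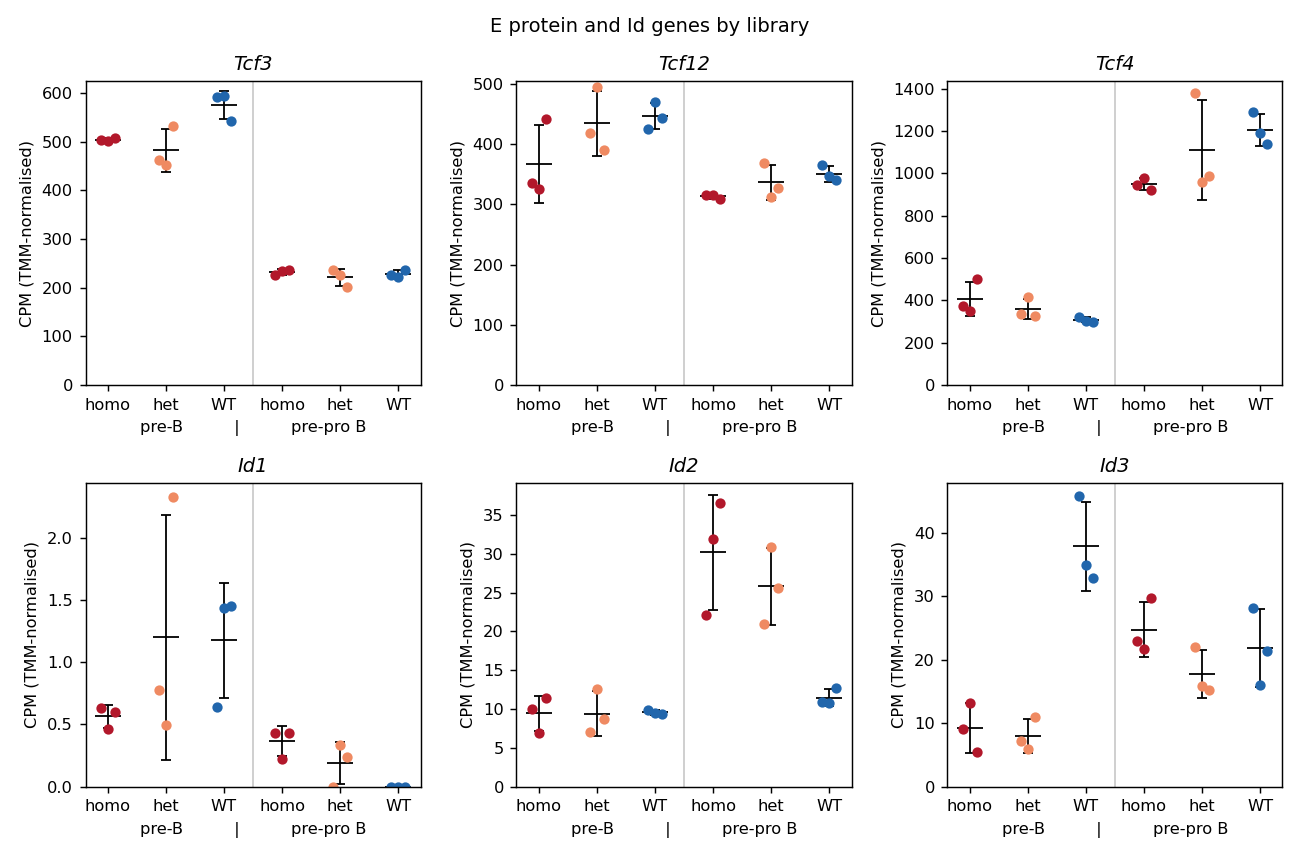
TMM-normalised CPM of the 6 genes in each of the 18 libraries (points), with group mean and SD (bars), pre-B groups left and pre-pro B groups right. Id3 is low in the homo and het pre-B groups and Id2 is high in the homo and het pre-pro B groups, while Tcf3 and Tcf4 separate the stages.

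Id3 encodes an inhibitor that in mouse lymphocytes is set by receptor and growth signals. It was the member that differed most between genotypes in pre-B cells. Its level in pre-B cells was 9.04, 13.3 and 5.41 CPM in the homo libraries, 7.17, 5.92 and 11 CPM in the het libraries, and 45.9, 34.9 and 32.9 CPM in the WT libraries. Every mutant library lay below every WT library, and the homo and het libraries overlapped. Mutant and WT libraries were apart, in either direction, for 42.6% of genes tested in homo and 33.3% in het pre-B cells. Id3 was 3.78-fold lower in homo than in WT pre-B cells, with a log2 fold change of -1.92 ± 0.29 and an adjusted p of 0.00166 (edgeR). In het pre-B cells it was 4.63-fold lower than in WT, at -2.21 ± 0.29 and an adjusted p of 0.00201 (edgeR). The homo and het groups differed by 0.29 on the log2 scale, with a 95% interval of -0.42 to 1.00.

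No other member passed in either pre-B comparison, so 1 of the 5 tested members was called in each, where 15.9% of the 11411 genes tested were called in homo and 6.18% in het cells. Between homo and het pre-B cells no member was called, and 1.89% of genes were. The counts behind Id3 were 57, 86 and 9 in homo, 46, 24 and 76 in het and 287, 195 and 204 in WT pre-B libraries. The 9 counts belong to the shallowest library, and without it the homo difference was -1.76 (adjusted p 0.000981, edgeR). Among XX libraries only, the homo one had 13.3 CPM and the 2 het ones 7.17 and 11 CPM, all under the WT range of 32.9 to 45.9 CPM. Markers of other cell types also differed in these pre-B libraries. The 15 myeloid markers summed to 121 to 155 CPM in homo, 93.5 to 99.4 CPM in het and 57.0 to 59.5 CPM in WT. Most of each sum was Itgam, at 122 ± 21.7 CPM in homo, 87.8 ± 5.51 CPM in het and 52.5 ± 2.07 CPM in WT. Itgam was called higher in both genotypes (1.23 in homo, 0.73 in het). Only 4 of the 15 had enough counts to be tested, and Ly6c2 was also called, higher in het. Ctsg was at 0 in every genotype, Elane in het and WT, Cd14 in homo and WT, Prtn3 in het and Cebpa in WT. The 13 T lineage markers summed to 27.6 to 46.3 CPM in homo, 25.9 to 29.1 CPM in het and 49.5 to 54.6 CPM in WT. Of these only 3 were tested. Much of each sum was Lck, at 23.4 ± 3.53 CPM in homo, 20.0 ± 4.53 CPM in het and 40.6 ± 1.24 CPM in WT. Lck was called lower in both mutant genotypes (-0.77 in homo, -1.02 in het). The part of such cells in the Id3 difference was not tested. The Id3 call was kept under each of the 14 alternatives in both genotypes, with adjusted p up to 0.0126 in homo and 0.0191 in het.

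At the pre-pro B stage Id3 was at 24.8 ± 4.34 CPM in homo, 17.7 ± 3.8 CPM in het and 21.8 ± 6.11 CPM in WT (SD, n = 3 each), and the groups overlapped. The homo difference there was 0.18 with a 95% interval of -0.29 to 0.65, and the het difference -0.34 with an interval of -0.83 to 0.16. The pre-B minus pre-pro B difference of the mutant effect was itself called, at -2.09 ± 0.36 for homo (adjusted p 0.000735, edgeR) and -1.87 ± 0.37 for het (adjusted p 0.00489, edgeR). Of the 5 tested members, 3 were called in this way for homo (Id3, Id2 and Tcf4) and 2 for het (Id3 and Id2), where 14.5% of the 12440 genes tested were called for homo and 5.65% for het. Read by stage, Id3 was lower in pre-B than in pre-pro B cells of homo mice (-1.28 ± 0.27) and het mice (-1.07 ± 0.28) and higher in pre-B than in pre-pro B cells of WT mice (0.80 ± 0.24). The WT stage call rests in part on the second pre-pro B WT library, without which its adjusted p was 0.0507 (edgeR). The order of Id3 levels ran from pre-B WT at the top, through the 3 pre-pro B groups, which overlapped each other, to the 2 mutant pre-B groups, which overlapped each other and lay below all the rest.

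Of 19 genes that induce Id genes or regulate Id proteins, 16 were tested in pre-B cells, and in homo cells 2 were higher and 3 lower than in WT, or 5 of 16 where 15.9% of all genes were called. Egr3, an early growth response factor that acts upstream of Id3 in mouse T cells, was at 1.90 ± 0.10 CPM in homo and 13.9 ± 5.0 CPM in WT pre-B cells (log2 -2.83 ± 0.35, adjusted p 0.000436, edgeR). Egr1, of the same family, was at 10.8 ± 4.75 CPM in homo and 30.5 ± 5.36 CPM in WT (-1.37 ± 0.27). Smad7, an inhibitor of TGF-beta and BMP signalling, was also lower (-1.22 ± 0.21), while Smad1, which carries BMP signals, was higher (1.68 ± 0.19). In het cells only Smad1 (1.12 ± 0.19) and Smad7 (-1.02 ± 0.21) of these 16 passed. Egr3 stood there at 11.2 ± 2.62 CPM and Egr1 at 23.5 ± 4.02 CPM, with log2 values of -0.32 ± 0.27 and -0.38 ± 0.25 that were not called. The median over the 16 genes was -0.08 in homo and 0.04 in het cells, against 0.02 and 0.01 over all genes tested. Genes whose pattern over the 18 libraries, after each stage's mean was taken off, was most like that of Id3 were Pck2, Esyt1 and Ltbp4, each with Pearson r of 0.95.

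Id2 encodes the inhibitor on which mouse NK and innate lymphoid development depends. It was raised in both mutant genotypes of the pre-pro B gate. The pre-pro B libraries had Id2 at 22.1, 31.9 and 36.6 CPM in homo libraries, 21.0, 30.9 and 25.6 CPM in het libraries and 10.9, 10.8 and 12.8 CPM in WT libraries. All mutant libraries lay above all WT libraries, and homo and het libraries overlapped. Mutant and WT libraries were apart, in either direction, for 46.5% of genes tested in homo and 21.7% in het pre-pro B cells. The difference was 2.60-fold in homo cells (log2 1.38 ± 0.21, adjusted p 0.00308, edgeR) and 2.26-fold in het cells (1.18 ± 0.21, adjusted p 0.0451, edgeR). Homo and het pre-pro B cells differed by 0.20, with a 95% interval of -0.20 to 0.61.

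Among the 5 tested members, Id2 was the only one called in pre-pro B cells, where 22.4% of the 12188 genes tested were called in homo and 0.558% in het cells. Homo and het libraries overlapped for every member there, none was called between them, and 0.0164% of genes were. The het call is close to the threshold. It was lost without the first WT library (adjusted p 0.162), the second WT library (0.192), the second het library (0.137) or the third het library (0.0741, all edgeR), although the log2 difference stayed between 1.02 and 1.27 under every alternative. With library size as a covariate the adjusted p was 0.0706 in homo and 0.0972 in het (edgeR), at log2 differences of 1.11 and 1.04. With sex as a covariate it was 0.0299 in homo and 0.129 in het. The XX mutant libraries had 31.9 CPM in homo and 21.0 and 25.6 CPM in het, above the WT range of 10.8 to 12.8 CPM.

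Pre-B cells showed Id2 at 9.45 ± 2.28 CPM in homo, 9.44 ± 2.85 CPM in het and 9.58 ± 0.29 CPM in WT (SD, n = 3 each). The groups overlapped, and the 95% interval of the homo difference ran from -0.65 to 0.50. The homo effect on Id2 differed between the stages by -1.49 ± 0.34 (adjusted p 0.00559, edgeR) and the het effect by -1.24 ± 0.33 (adjusted p 0.0329, edgeR). Leaving out any of 9 of the 12 libraries behind the het value gave adjusted p-values between 0.0521 and 0.104 (edgeR); these were het libraries 2 and 3 and WT libraries 1 and 2 of pre-pro B cells, and het libraries 1 and 3 and all 3 WT libraries of pre-B cells. By stage, Id2 was 3.36-fold lower in pre-B than in pre-pro B cells in homo and 2.84-fold lower in het mice, both called. In WT mice the stage difference was -0.26 ± 0.24 and not called, although the WT libraries of the 2 stages did not overlap, as for 79.8% of genes tested.

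Genes of NK and innate lymphoid cells were higher in the mutant pre-pro B cells. All 17 genes of that list were tested there, and 14 were higher and none lower in homo cells, where 22.4% of all genes were called, with a median log2 difference of 2.41 against 0.01 over all genes. Gzmb, which encodes the killer protease granzyme B, was at 49.9 ± 12.7 CPM in homo and 0.319 ± 0.312 CPM in WT (log2 7.13 ± 0.58). Gzma, another granzyme, was at 51.7 ± 10.6 CPM in homo and 1.61 ± 0.995 CPM in WT, and Ncr1, the NK receptor NKp46, at 18.1 ± 6.31 CPM in homo and 1.01 ± 0.215 CPM in WT. Gzmb was so low in WT that it passed the count filter only through mutant libraries. It could be called higher but not lower. The same limit bears on other genes near 0 in WT, so the count of none lower is partly set by the filter. In het cells, where 0.558% of all genes were called, 4 of the 17 were, each of them higher: Gzmb (5.62 ± 0.68), Gzma (4.14 ± 0.38), Ncr1 (3.85 ± 0.54) and Nkg7 (2.52 ± 0.42).

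The summed level of the 17 genes in pre-pro B libraries was 338 to 560 CPM in homo, 248 to 391 CPM in het and 143 to 165 CPM in WT. None of the 17 was at 0 over a pre-pro B group. In pre-B cells the sum was 45.0 to 48.1 CPM in homo, 19.9 to 27.3 CPM in het and 17.9 to 22.1 CPM in WT. Eomes, Ncr1, Klrk1, Gzma and Gzmb were at 0 in WT pre-B cells, Gzmb also in het, and Tbx21 and Zbtb16 in homo. Some of the 17 genes were also called in pre-B cells, where Id2 was not. Prf1, the pore protein perforin, was higher in homo (10.9 ± 2.99 CPM) and het (5.66 ± 0.886 CPM) than in WT pre-B cells (0.632 ± 0.539 CPM). Klrb1c was higher in homo pre-B cells (2.46 on the log2 scale) and Tcf7 lower in het pre-B cells (-1.27), of 5 tested. The 3 genes most like Id2 over the 18 libraries were Nkg7 (Pearson r 0.93), Tbx21 (0.92) and Ncr1 (0.90), all from that list. Of 14 myeloid markers tested, 8 were higher in homo pre-pro B cells and none was called in het cells, among the 8 Ctsg (8.26 ± 2.22 CPM in homo, 0.222 ± 0.0783 CPM in WT), and their sum was 319 to 391 CPM in homo, 217 to 285 CPM in het and 219 to 253 CPM in WT, so het and WT libraries overlapped. Ctsg, near 0 in WT, could likewise be called higher but not lower. T lineage markers, with 2 higher and 3 lower of 10 tested in homo cells, summed to 617 to 668 CPM in homo, 664 to 885 CPM in het and 786 to 881 CPM in WT. The part of such cells in the Id2 difference was not tested.

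**Figure D2:**
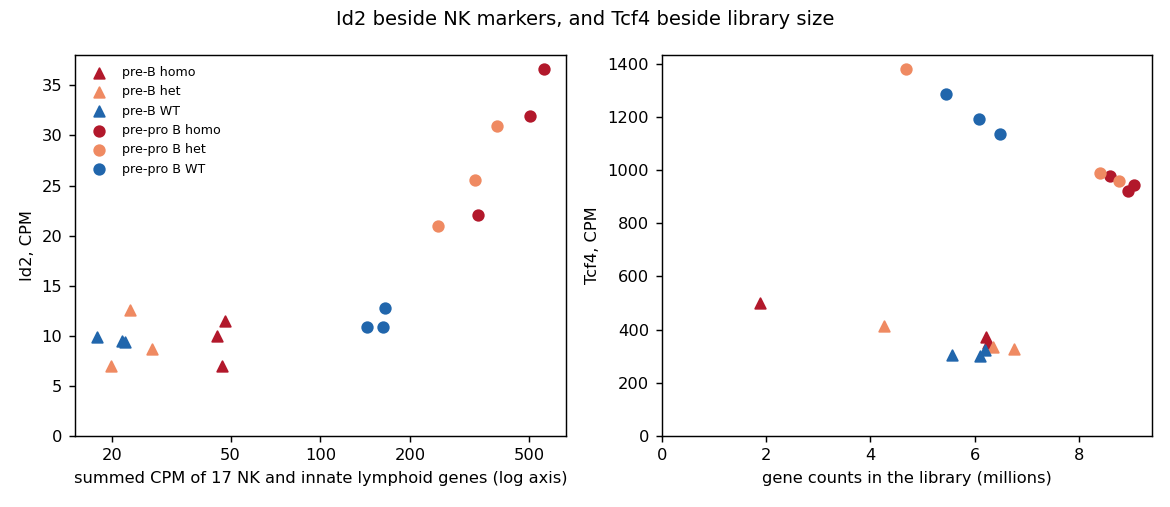
Left, Id2 CPM in each library against the summed CPM of 17 NK and innate lymphoid genes (log axis); right, Tcf4 CPM against the number of gene counts in the library. In pre-pro B cells (circles) Id2 and the NK sum are both lowest in the 3 WT libraries, and Tcf4 CPM is highest in the library with the fewest counts.

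Id1, best known as a BMP target, was near the detection limit throughout. Over the 3 libraries of a group it had 10 counts in homo, 5 in het and 0 in WT pre-pro B cells, and 8 in homo, 23 in het and 21 in WT pre-B cells. A count of 0 over the 3 WT pre-pro B libraries allows up to 3 counts, or 0.169 CPM, by counting error only. Pooled Id1 was at 1.16 CPM in WT pre-B cells, 6.89-fold over that limit. The counting error of the 21 WT pre-B counts is not in this ratio, so it is not a lower bound, and the stage difference was not tested. Genotype differences of Id1 were not tested.

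**Figure D3:**
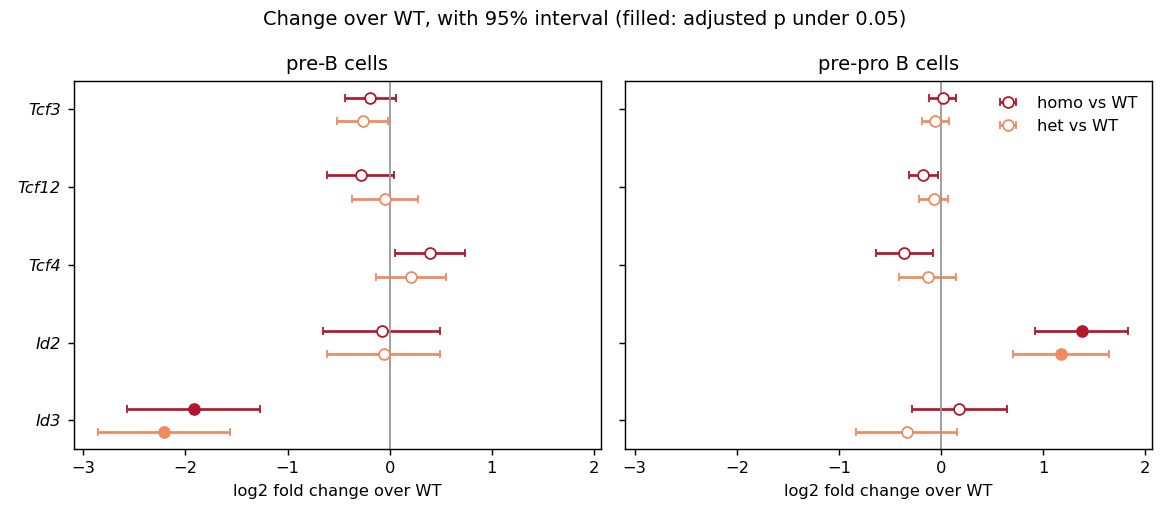
Log2 fold change over WT of the 5 tested genes with 95% intervals, homo (dark) and het (light), in pre-B cells (left) and pre-pro B cells (right). Filled points are called: Id3 in pre-B cells and Id2 in pre-pro B cells, in both genotypes, with the E protein genes between -0.36 and 0.40.

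The 3 E protein genes were not called between genotypes at either stage. Tcf4 encodes E2-2, which in mice maintains plasmacytoid dendritic cells and also serves early B cells. The pre-pro B libraries had Tcf4 at 944, 979 and 923 CPM in homo libraries, 1382, 958 and 989 CPM in het libraries and 1288, 1192 and 1137 CPM in WT libraries. The homo libraries all lay below the WT libraries, and the first het library stood above all others. Homo and WT libraries were apart in this way, in either direction, for 46.5% of genes tested, and het and WT libraries for 21.7%. The homo difference was -0.36 ± 0.13 (adjusted p 0.0631, edgeR) and the het difference -0.13 ± 0.13 (adjusted p 0.596, edgeR). DESeq2 called Tcf4 lower in homo pre-pro B cells, at -0.36 and an adjusted p of 0.0268.

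In pre-B cells Tcf4 was at 374, 349 and 499 CPM in homo, 335, 415 and 327 CPM in het and 323, 303 and 300 CPM in WT libraries. Both mutant groups lay above the WT group without overlap, as 42.6% of genes did in either direction for homo and 33.3% for het. The differences were 0.40 ± 0.15 for homo (adjusted p 0.117, edgeR) and 0.21 ± 0.15 for het (adjusted p 0.502, edgeR). Depth moved with these levels: the highest Tcf4 CPM of each stage, 1382 and 499, stood in the shallowest library of that stage. Raw Tcf4 counts in pre-pro B libraries were 8474 to 8719 in homo, 6316 to 8643 in het and 6861 to 7300 in WT. With library size as a covariate the homo difference was -0.02 in pre-pro B cells (adjusted p 0.873) and 0.24 in pre-B cells (adjusted p 0.0118, both edgeR). In het pre-B cells that covariate gave 0.18 (adjusted p 0.0357, edgeR).

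The homo effect on Tcf4 differed between stages, at 0.74 ± 0.21 (adjusted p 0.0225, edgeR). The library size covariate brought it to 0.35, still called, and without the third homo pre-B library it was 0.57 (adjusted p 0.0325). With the replicate number within each genotype as a block, an alternative chosen after seeing the data, it was 0.72 and not called (adjusted p 0.0564, edgeR). The call was also lost without pre-pro B WT library 1 (adjusted p 0.0627), pre-pro B homo library 3 (0.05002), pre-B WT library 2 (0.0525) or pre-B WT library 3 (0.0517, all edgeR). The het value was 0.34, with a 95% interval of -0.10 to 0.77, and not called. Tcf4 was lower in pre-B than in pre-pro B cells in every genotype: 2.34-fold in homo, 3.09-fold in het and 3.91-fold in WT, all called. Genes most like Tcf4 in pattern were Itm2b, Laptm4a and Serp1, with Pearson r between 0.97 and 0.98.

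Plasmacytoid dendritic genes, known as E2-2 dependent in mice, were lower in homo pre-pro B cells for 11 of 16 tested, where 22.4% of all genes were called in either direction, with a median of -0.49 and none higher. Klk1 (-0.90), Irf7 (-0.81), which drives type I interferon, Spib (-0.56), an Ets factor, and Tlr9 (-0.54), the sensor of unmethylated DNA, changed most. None of the 16 was called in het cells, where the median was -0.22. Their sum was 6003 to 6218 CPM in homo, 6230 to 9192 CPM in het and 7954 to 8839 CPM in WT pre-pro B libraries, again highest in the shallow first het library. In homo pre-B cells, where 15.9% of all genes were called, 4 of 12 tested were lower. They were Tlr9 (13.0 ± 8.52 CPM in homo, 80.6 ± 4.96 CPM in WT), Bcl11a, Ly6d and Spib, which are also used by B lineage cells. By stage 15 of the 16 were lower in pre-B than in pre-pro B cells in each genotype. Of all genes, 69.1% were called between the stages in homo, 68.1% in het and 64.3% in WT mice. Klk1 was at 0 over the homo and the het pre-B libraries. Whether fewer plasmacytoid dendritic cells in the gate contributed to the Tcf4 values was not tested.

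Tcf3 encodes E2A, the E protein that B lineage entry requires. In pre-B cells it was at 503, 503 and 507 CPM in homo, 462, 451 and 533 CPM in het and 591, 594 and 543 CPM in WT libraries. Every mutant library lay below every WT library, by small amounts: the homo difference was -0.19, with a 95% interval of -0.44 to 0.06 (adjusted p 0.294, edgeR), and the het difference -0.26, with an interval of -0.51 to -0.02 (adjusted p 0.233, edgeR). Groups were apart, in either direction, for 42.6% of genes tested in homo and 33.3% in het pre-B cells. The het difference was -0.26 and called with library size as a covariate (adjusted p 0.0107, edgeR). In pre-pro B cells Tcf3 was at 233 ± 5.59 CPM in homo, 222 ± 17.6 CPM in het and 228 ± 7.34 CPM in WT, and the groups overlapped. It was higher in pre-B than in pre-pro B cells by 2.17-fold in homo, 2.18-fold in het and 2.52-fold in WT mice, all called. The mutant effect differed between stages by -0.22 in homo and -0.21 in het, and neither was called. Crebzf, Csgalnact1 and Maz were the genes most like Tcf3, with Pearson r of 0.84 to 0.86.

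Tcf12 encodes HEB, an E protein that can pair with E2A in lymphocytes. In pre-pro B cells it was at 316, 315 and 309 CPM in homo, 369, 313 and 327 CPM in het and 365, 346 and 340 CPM in WT libraries. The homo libraries were below the WT libraries, with a difference of -0.17 ± 0.06 (adjusted p 0.0733, edgeR), and the het libraries overlapped both. Homo and WT libraries were apart there, in either direction, for 46.5% of genes tested. In pre-B cells it was at 335, 325 and 442 CPM in homo, 419, 495 and 390 CPM in het and 426, 469 and 444 CPM in WT libraries. The third, shallowest homo library stood among the WT values and the other 2 homo libraries below them. With it the homo difference was -0.28 ± 0.15 (adjusted p 0.236), and without it -0.44 (adjusted p 0.0164, both edgeR). With library size as a covariate it was -0.43 (adjusted p 0.000102, edgeR). Without the first pre-pro B het library, the het difference at that stage was -0.15 for Tcf12 (adjusted p 0.0434) and -0.33 for Tcf4 (adjusted p 0.00744, both edgeR).

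The stage difference of Tcf12 was 0.22 ± 0.11 in homo (adjusted p 0.0948), 0.37 ± 0.11 in het (adjusted p 0.00823) and 0.35 ± 0.11 in WT (adjusted p 0.0125, all edgeR), higher in pre-B cells. The het and WT calls were each lost without the second pre-B library of that genotype (adjusted p 0.0523 and 0.0507, edgeR), and the homo difference was called without the second homo pre-B library, at 0.30 (adjusted p 0.0378, edgeR). Skap2, Birc3 and Lpgat1 had the patterns most like that of Tcf12, with Pearson r of 0.93. Between the stages, 4 of the 5 tested members were called in homo cells (1 higher and 3 lower in pre-B cells), where 69.1% of all genes were called. In het cells 5 were called (2 higher and 3 lower), where 68.1% of genes were, and in WT cells 4 (3 higher and 1 lower), where 64.3% were. The pre-B and pre-pro B libraries were apart for all 5 members in each genotype, as for 72.7% of genes in homo, 69.5% in het and 79.8% in WT mice.

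**Figure D4:**
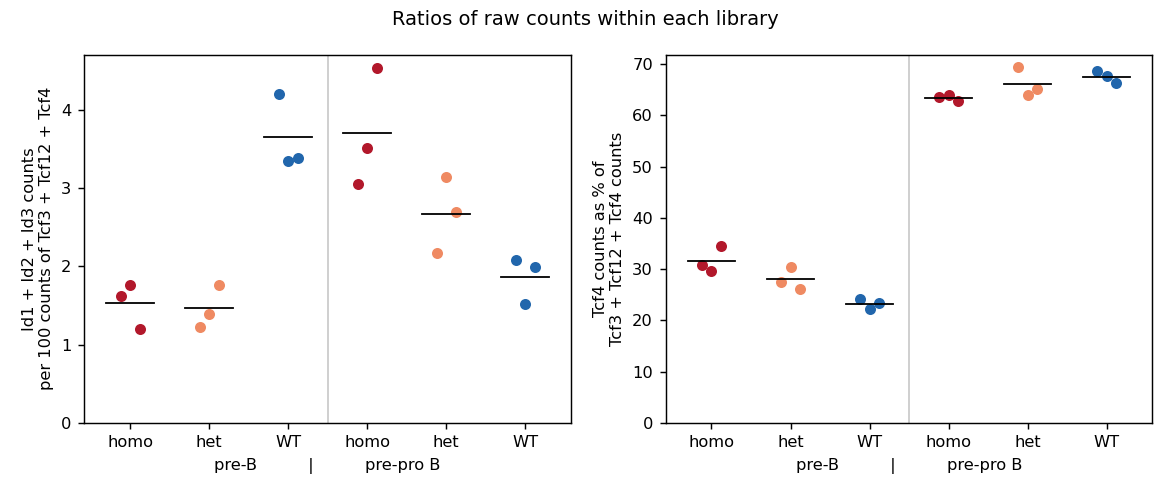
Left, summed counts of Id1, Id2 and Id3 per 100 summed counts of Tcf3, Tcf12 and Tcf4 in each library; right, Tcf4 as a percent of the 3 E protein genes' counts. Lines are group means. In pre-B cells the mutant libraries lie at 1.20 to 1.77 Id counts per 100 E protein counts and the WT libraries at 3.36 to 4.21.

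Raw counts within a library need no scaling, and here they were not corrected for length. A ratio can still move with depth where the level of one of its genes does. In pre-pro B cells most E protein counts were of Tcf4, whose CPM was highest in the shallowest library, and depth moved with genotype there. The part of depth in these ratios was not tested. Relative to E protein counts, Id counts were fewer in mutant than in WT pre-B libraries and more in mutant than in WT pre-pro B libraries. In pre-B cells there were 1.53 ± 0.29 Id counts per 100 E protein counts in homo, 1.46 ± 0.27 in het and 3.65 ± 0.48 in WT (SD, n = 3 each), with no overlap between mutant and WT libraries. Among pre-pro B libraries there were 3.71 ± 0.76 in homo, 2.67 ± 0.49 in het and 1.86 ± 0.30 in WT, and each mutant library lay above each WT library. The smallest p that an exact permutation test of 3 against 3 libraries allows is 0.10, so these ratios carry no test. Id2 made up 49.97% ± 15.98 of Id counts in homo, 50.9% ± 13.8 in het and 19.9% ± 2.04 in WT pre-B cells. Tcf4 made up 31.7% ± 2.5 of E protein counts in homo, 28.1% ± 2.20 in het and 23.2% ± 0.95 in WT pre-B cells, and 63.5% ± 0.62 in homo, 66.2% ± 2.89 in het and 67.5% ± 1.12 in WT pre-pro B cells.

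A list of 20 E2A targets held B lineage genes and also others, such as Ptcra. Of the 20, 16 were higher and 4 lower in pre-B than in pre-pro B cells of homo mice. The counts were 15 higher and 4 lower in het mice and 14 higher and 4 lower in WT mice. Of all genes, 69.1% were called between the stages in homo, 68.1% in het and 64.3% in WT mice. The median of the 20 was 2.05 in homo, 1.97 in het and 1.97 in WT mice, against -0.05, -0.03 and -0.01 over all genes tested. Pax5 (3.56 in homo, 4.02 in het and 4.23 in WT) and Pou2af1 (3.99 in homo, 3.82 in het and 3.96 in WT), which encode B lineage regulators, were among the largest rises on the log2 scale, and Ptcra, the pre-T receptor chain, fell. Between genotypes, 2 of 19 tested were called in homo pre-B cells, where 15.9% of all genes were called. Both were higher than in WT: Socs3, a brake on cytokine signals (5.71 ± 3.39 CPM in homo, 1.79 ± 0.617 CPM in WT), and Foxo1, which turns on recombination genes (637 ± 69.5 CPM in homo, 461 ± 14.5 CPM in WT). In het pre-B cells 2 of 19 were called, where 6.18% of all genes were. Both were lower: Dntt (45.3 ± 11.3 CPM in het, 92.8 ± 10.1 CPM in WT) and Igll1 (56.3 ± 6.58 CPM in het, 87.4 ± 4.22 CPM in WT), which encode terminal transferase and a surrogate light chain. In homo pre-pro B cells, where 22.4% of all genes were called, 2 of 20 were lower, Blnk (-0.38) and Notch1 (-0.28). None passed in het pre-pro B cells, where 0.558% of all genes did. The median over the 19 genes was 0.21 in homo and 0.05 in het pre-B cells.

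Of 11 co-regulators of E proteins tested in pre-B cells, 1 was higher and 4 were lower in homo cells, where 15.9% of all genes were called. In het cells 3 were lower, where 6.18% of all genes were called. Gfi1, a repressor, was at 15.7 ± 7.22 CPM in homo, 15.1 ± 1.33 CPM in het and 43.4 ± 5.97 CPM in WT pre-B cells, lower in both genotypes (-1.37 ± 0.26 in homo, -1.52 ± 0.25 in het). Cbfa2t3, which encodes the ETO family co-repressor ETO2, was at 154 ± 29.4 CPM in homo and 348 ± 10.6 CPM in WT and was called lower in homo cells. The acetyltransferase gene Kat2a was lower in both (-0.85 in homo, -0.71 in het), Cbfa2t2 in homo (-0.52) and Lef1, an HMG box factor, in het (-1.0). In homo pre-pro B cells Gfi1 (0.74) and Runx1 (0.44) were higher and Cbfa2t3 (-0.28) lower of 10 tested, and no co-regulator passed in het cells there.

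Other helix-loop-helix genes and their partners gave 2 higher and 4 lower of 15 tested in homo pre-B cells, where 15.9% of all genes were called. Bhlhe40, a repressor of this class, was at 0.662 ± 0.475 CPM in homo and 3.85 ± 0.733 CPM in WT, and its paralog Bhlhe41 at 38.0 ± 5.46 CPM in homo, 42.8 ± 6.95 CPM in het and 13.9 ± 2.53 CPM in WT. Mitf (1.79) was higher and Tfeb (-0.91) lower in homo cells. In het pre-B cells Bhlhe41 (1.61) was called higher and Lmo2 (-1.36), a LIM protein that bridges helix-loop-helix factors, lower. In homo pre-pro B cells, where 22.4% of all genes were called, 3 of 17 were higher and 3 lower, led by Lmo1 (1.24) and Myc (1.20), and none was called in het cells.

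On GRCm38.p6, Tcf3 lies at chr10:80409541-80433976, Tcf12 at chr9:71844252-72111893, Tcf4 at chr18:69343429-69687967, Id1 at chr2:152736251-152737410, Id2 at chr12:25093799-25096092 and Id3 at chr4:136143822-136145392. Regions bound by Ikaros lay inside Tcf12 and Tcf4 in every Ikaros list, by the authors' fold over the caller's background. At Tcf12, 1 region lay at the 5′ end and 1 at the internal start whose promoter is printed above, 216 kb downstream. The region at the 5′ end had a fold of 13.6 in homo and 17.3 in WT pre-B cells, and 16.8 in homo and 16.6 in WT thymocytes. It ran past the annotated 5′ end of the gene at 72111893 in the homo pre-B list (to 72111972) and in both thymocyte lists, while the WT pre-B region, chr9:72110568-72111346, ended inside the gene. A RefSeq promoter window there, chr9:72111820-72112069, had 153 of its 250 bases in the homo and none in the WT pre-B region. In thymocytes it had 250 in the homo and 121 in the WT region. Another RefSeq window at that end, chr9:72111202-72111451, had 250 bases in the homo and 145 in the WT pre-B region. All 250 of its bases lay in the region of both thymocyte lists. At the internal start the fold was 10.8 in homo and 12.01 in WT pre-B cells, and 8.93 in homo and 11.2 in WT thymocytes. All 250 bases of the printed window lay inside the region of the homo and WT pre-B lists and of the homo thymocyte list, and 204 of them inside that of the WT thymocyte list.

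Tcf4 held 5 regions in homo and 4 in WT pre-B cells, and 4 in homo and 3 in WT thymocytes. The region with the highest fold in pre-B cells lay at chr18:69592760-69593494 in homo cells, at 15.9-fold, and at chr18:69592814-69593459 in WT cells, at 13.2-fold. Long genes hold regions more often: among 1011 genes of at least 200 kb, 53.7% had an Ikaros region within 10 kb in homo and 34.2% in WT pre-B cells, and 35.1% in homo and 23.7% in WT thymocytes. Tcf3 had 1 region 6.3 to 6.4 kb before its start in both pre-B lists, 7.39-fold in homo and 4.43-fold in WT, and none in thymocytes. Of all 24343 genes with a position, 23.7% had a region in the homo and 11.2% in the WT pre-B list.

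**Figure D5:**
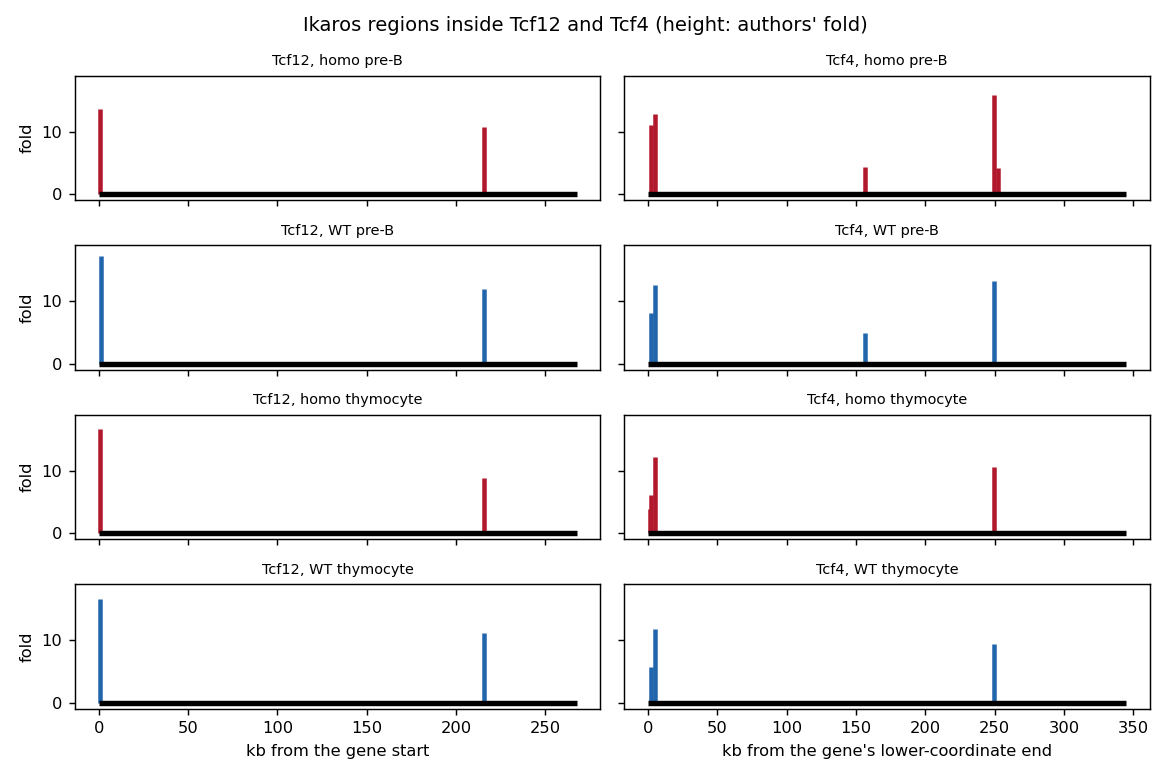
Ikaros regions inside Tcf12 (left, kb from its start) and Tcf4 (right, kb from its lower-coordinate end) in the 4 lists, with the authors' fold as height and the gene as a black line. The same 2 places in Tcf12 and 3 places in Tcf4 carry a region in each list.

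Near the Id genes regions were few. None lay within 10 kb of Id1, Id2 or Id3 in either pre-B list. Among all 6559 genes under 5 kb, 12.3% had one in the homo and 5.46% in the WT pre-B list, so 0 of 3 says nothing particular about the Id genes. The homo thymocyte list had 1 region 2.52 kb past the end of Id3 (7.01-fold) and 1 region 0.809 kb past the end of Id2 (3.13-fold, at a −log10 q of 1.31), and the WT thymocyte list had neither. That homo list is longer, with 8221 regions against 3572 in WT, and 16.5% of genes under 5 kb had a region in it, against 5.56% in WT. Within 50 kb of Id3 the homo pre-B list held 2 regions, at chr4:136117587-136117841 (5.56-fold) and chr4:136177215-136178176 (3.69-fold), and the WT pre-B list held none, in lists of 8609 and 3683 regions. The Aiolos lists were short, with 24 regions in homo and 431 in WT pre-B cells and 184 in homo and 25 in WT thymocytes. They held 1 region at a member, inside Tcf12 in WT pre-B cells at chr9:71885933-71886135 (4.21-fold). With 1 library for each list, differences between lists have no replicate check, and the pre-B lists come from cultured cells while the RNA comes from sorted ones.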

How the data were processed

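The deposited RNA files hold raw counts per gene symbol made by the authors, 1 file per library. Entries that name no gene were kept out of library sizes: reads in no gene made up 29.8% to 40.1% and ambiguous reads 0.730% to 0.882% of a library's total. Per the submitters' processing notes, the tools were HISAT2 2.1.0, STAR 2.7.0 and MACS2 2.1.1 and the build mm10, with no role attached to each. Strand use in counting is not stated in the sources used here.

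Differences were tested by edgeR 4.0.16 under R 4.3.3, with low counts removed by filterByExpr, TMM factors and the robust form of the quasi-likelihood test. Genotype contrasts used a fit of the 9 libraries of a stage, and stage and interaction contrasts a fit of all 18. The pre-pro B fit kept 12188 genes, the pre-B fit 11411 and the joint fit 12440, with biological coefficients of variation of 8.13%, 16.3% and 12.4%. Likeness is Pearson r of log2 CPM (prior count 2) over 18 libraries after stage means were taken off, a description only. Genes named from a list are at most the 4 with the largest called change in that comparison; others named were chosen after their values were seen. Alternatives were DESeq2 1.42.0, other factors and filters, covariates for library size and sex, a replicate block and left-out libraries. The fit was tested on simulated counts with the same spread for all genes and no shift of levels with depth. That test does not bear on levels that move with depth.

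In the deposited region lists each entry has a score, a fold (ratio to background) and the −log10 of both its p-value and its q-value, as written by the authors' caller. Regions were assigned to genes within 10 kb by RefSeq positions on GRCm38.p6, the mm10 assembly, which matched 24343 of 24459 genes. Promoter windows came from RefSeq for 4 of the 6 members. Intervals on counts of 0 (floor of 3 counts) cover counting error only. The members and gene lists were chosen with earlier results of these data known. The count files do not show the substitution, so genotypes rest on the labels.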

Additional observations from a re-analysis of the deposited data

Results flagged for a closer look

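Effects that differed between the stages, by the interaction term of edgeR's quasi-likelihood test in the fit of all 18 libraries, were found for 3 members. Of all genes tested, 14.5% were called in this way for homo and 5.65% for het. For Id3 the log2 difference of the mutant effect, pre-B minus pre-pro B, was -2.09 for homo and -1.87 for het against WT. For Id2 it was -1.49 for homo and -1.24 for het. For Tcf4 it was 0.74 for homo. The het Id2 call was lost in 9 of 20 alternatives and the homo Tcf4 call in 5 of 20. Id2 was raised in mutant pre-pro B cells and Id3 was low in mutant pre-B cells, and in this subtraction each gives a negative value.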

How the results depend on the processing

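Over 55 differences of members (5 genes, 11 comparisons), 845 alternative values were computed: 792 kept their direction and side of the threshold, 24 lost a call, 11 gained one and 18, none of them called, changed sign. The number of members called was 1 for homo against WT pre-pro B cells, 2 with DESeq2 and 0 with library size as a covariate. For het it was 1, 0 with the library size or the sex covariate, and 0 to 3 with a library left out. In pre-B cells it was 1 for homo, 3 with the library size covariate and 1 to 2 with a library left out, and 1 for het, 3 with that covariate. Homo against het pre-B cells gave 0, and 1 with that covariate. The het interaction gave 2, and 1 to 2 with a library left out. The cause was not tested, except that left-out libraries mean fewer samples.

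Sign changes came in small values. In the het interaction Tcf12 was at -0.0172 without a count filter and -0.0619 with library size as a covariate, and its homo stage difference was -0.0792 with that covariate. With a library left out, the het interaction of Tcf12 ran from -0.0791 to 0.0953. In pre-pro B cells, Tcf3 ran from -0.0078 to 0.0384 in homo and from -0.113 to 0.0090 in het against WT, and Id3 from -0.0076 to 0.398 in homo. In pre-B cells Id2 ran from -0.180 to 0.131 in homo and -0.287 to 0.122 in het against WT, and -0.198 to 0.201 in homo against het. Tcf12 in het against WT ran from -0.145 to 0.0266, and Id3 in homo against het from -0.0565 to 0.609. The homo interaction of Tcf12 was -0.42 and called (adjusted p 0.00149, edgeR) with the library size covariate.

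Counts over all genes moved more. Homo against WT pre-pro B cells gave 2730 genes and 213 to 2754 under the alternatives; het gave 68 and 0 to 1901; homo against het gave 2 and 0 to 223. In pre-B cells these were 1811 and 1055 to 3456, 705 and 336 to 3005, and 216 and 52 to 1604. The het interaction gave 703, 1055 with library size as a covariate and 395 with a replicate block within genotype.

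Within a stage, replicate numbers did not pair the libraries: same-numbered libraries of different genotypes correlated at -0.516 to 0.116. Across the stages, same-numbered libraries of a genotype had the same sex in 9 of 9 pairs, and their deviations correlated at -0.0467 to 0.238, over 0.1 in 4 of 9 pairs, so shared mice were not established. A replicate block within genotype, chosen after seeing the data, ended the homo Tcf4 interaction call (0.72, adjusted p 0.0564, edgeR) and no other call of a member between the stages. With a replicate block the Id2 difference was 1.37 in homo (adjusted p 0.000601) and 1.16 in het (0.0106) pre-pro B cells, and Id3 -1.94 in homo (0.0124) and -2.21 in het (0.0185, all edgeR) pre-B cells. The block moved het calls in pre-pro B cells to 119 and homo against het calls to 20, and in pre-B cells gave 1125 homo, 383 het and 71 homo against het calls.

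Ikaros regions at members numbered 8 in homo pre-B cells and 16 within 50 kb, and 8 in homo thymocytes and 14 within 50 kb. Aiolos regions numbered 1 in WT pre-B cells and 0 at a −log10 q of at least 5, and 0 in homo thymocytes and 1 within 50 kb. The library size covariate and genotype overlap in pre-pro B cells, Id1 counts were too few to test, and the region lists have 1 library each.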
